A study of Pinus pinaster with 6 samples.

Results

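Ribosomal protein transcripts of maritime pine (Pinus pinaster) roots are described here through 4 of the 46658 transcripts of a direct RNA sequencing (DRS) experiment. They are pp_209640, annotated as 60S ribosomal protein L21, pp_236928 (60S L8), pp_236316 (40S S23) and pp_215447 (a fusion of ubiquitin with 60S L40). These 4 were picked because their read counts differed between the 2 groups, so the group differences given for them are descriptions and carry no test. Roots of one-month-old seedlings grown in vermiculite were compared between a control group, which received 80 mL of water, and a group supplied with 80 mL of NH4Cl at 3 mM. Until then both groups had received distilled water, and roots were frozen 24 h after irrigation. There were 3 libraries per group, called C1 to C3 (control) and N1 to N3 (ammonium) below. According to the labels the experiment was performed 3 independent times, but no label ties a library number to a run or gives the number of seedlings behind a library. The p-values below therefore measure only the spread between these libraries.

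The cytosolic ribosome of plants consists of a large 60S subunit, where peptide bonds are formed, and a small 40S subunit, where the messenger is decoded. Each subunit holds ribosomal RNA and many proteins, named L for the large and S for the small subunit. In plants each of these proteins is encoded by a small family of paralogous genes, so that the same protein can be made from different transcripts. L8 (uL2 in the universal nomenclature) lies close to the peptidyl transferase centre, S23 (uS12) takes part in decoding at the aminoacyl site, and L21 (eL21) is a eukaryotic protein of the large subunit. L40 and S27a are made as fusions behind ubiquitin, the small protein that marks other proteins for degradation, and the ubiquitin is cleaved off afterwards. Polyubiquitin genes encode head-to-tail repeats of ubiquitin and no ribosomal part.

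In DRS each read is a native poly(A) RNA molecule, so CPM values (reads scaled to library size) were read as levels of molecules, with no scaling for transcript length. Many transcripts had nearly the same reads as another, and whether a molecule was counted in both was not tested. Each CPM value in the deposited table was a whole multiple of the value of 1 read, and the reads behind each level are given on that basis. Summed over the transcripts of the deposited table, the reads came to 1270378 in C1, 2947096 in N1 and between 4513186 and 5416076 in the others. This makes C1 the least precise library. A transcript with a single read stood at 0.767 CPM in C1 and at 0.178 CPM in N3. Transcripts of the photosynthetic apparatus, which should be low in roots, were not absent: the 7 annotated ones summed to between 433 and 681 CPM, highest in C1 and lowest in N1. The root ammonium transporter transcript PpAMT1.3 (pp_203543) lay between 23.8 and 48.7 CPM. A lower share of one cell type and less RNA per cell cannot be told apart in whole roots.

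L21, L8 and S23 were higher in the ammonium libraries and the ubiquitin-L40 transcript was lower, each by a factor of about 1.6. The level of pp_209640 (L21) was 25.3 CPM in C1, 40.1 CPM in C2 and 33.6 CPM in C3, from 33, 196 and 152 reads. In the ammonium libraries it was 44.8 CPM in N1, 61.0 CPM in N2 and 53.3 CPM in N3, from 138, 286 and 299 reads. All 3 ammonium libraries lay above all 3 control libraries, and the gap between N1 and C2 was 4.72 CPM. The means were 33.0 ± 7.41 CPM (SD, n = 3) in controls and 53.03 ± 8.09 CPM (SD, n = 3) under ammonium, a ratio of 1.61. On the log2(CPM + 1) scale, used for every log2 fold change below unless another is named, the difference was 0.68 with a standard error of 0.17.

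The level of pp_236928 (L8) was 18.4 CPM in C1, 27.8 CPM in C2 and 21.9 CPM in C3, and it rested on as few as 24 reads in C1. It was 29.2 CPM in N1, 43.7 CPM in N2 and 42.3 CPM in N3. The groups did not overlap, but N1 exceeded C2 by only 1.40 CPM, which is less than the counting error of either library (8.57% of the level in C2 and 10.5% in N1). The ratio of the means, 38.4 ± 7.98 CPM under ammonium against 22.7 ± 4.76 CPM in controls (SD, n = 3 each), was 1.69, and the log2 fold change was 0.73 (SE 0.18).

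The level of pp_236316 (S23) was 35.3 CPM in C1, 46.0 CPM in C2 and 43.7 CPM in C3. It was 75.3 CPM in N1, 69.3 CPM in N2 and 56.3 CPM in N3. Here N1 was the highest of the 6 libraries, whereas for L21 and L8 it was the lowest of the ammonium libraries. The means were 41.7 ± 5.65 CPM in controls and 67.0 ± 9.71 CPM under ammonium (SD, n = 3 each), with a ratio of 1.61 and a log2 fold change of 0.67 (SE 0.14).

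The level of pp_215447 (ubiquitin-L40) was 142 CPM in C1, 119 CPM in C2 and 129 CPM in C3. It was 89.0 CPM in N1, 77.0 CPM in N2 and 84.1 CPM in N3. Every ammonium library lay below every control library, with a gap of 29.7 CPM between C2 and N1. The controls averaged 129.7 ± 11.7 CPM and the ammonium libraries 83.4 ± 6.03 CPM (SD, n = 3 each), so the control level was 1.56 times the ammonium level and the log2 fold change was -0.63 (SE 0.11). It was the most abundant of the 4 and had the smallest relative spread.

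**Figure D1:**
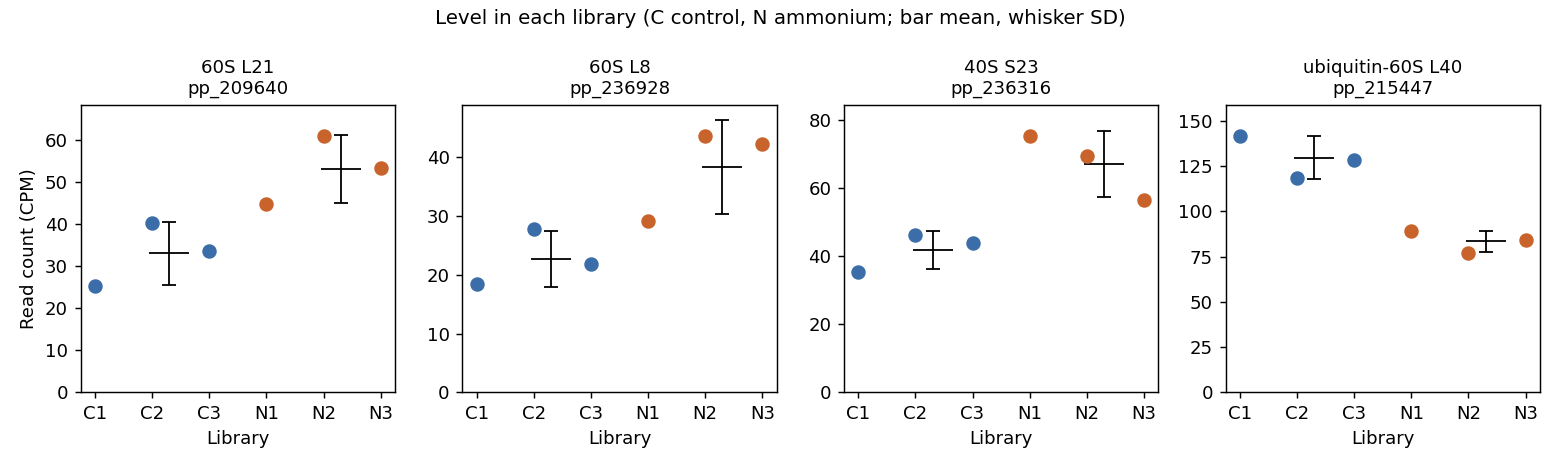
Level of the 4 transcripts in each library in CPM (points: control libraries C1 to C3 in blue, ammonium libraries N1 to N3 in orange; horizontal bar and whiskers: mean and SD of the 3 libraries of a group). The groups do not overlap in any panel; L21 and L8 peak in N2, S23 peaks in N1, and ubiquitin-L40 is lower in N1 to N3 than in C1 to C3.

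In all 4 the libraries of the groups did not overlap, which across the whole table was true of 14.1% of transcripts; since the 4 were picked on this contrast, nothing is read from that count. The relative spread between libraries was wider than counting error alone gives. For L21 the coefficient of variation was 22.4% in controls and 15.3% under ammonium, against mean counting errors of 10.9% and 6.74%. For ubiquitin-L40 it was 9.01% in controls and 7.24% under ammonium, against 5.22% and 5.30%. C1 was the lowest library for L21, L8 and S23 and the highest for ubiquitin-L40. Leaving it out brought the log2 fold changes to 0.51 for L21, 0.60 for L8, 0.56 for S23 and -0.56 for ubiquitin-L40. With both C1 and N1 left out they were 0.62, 0.78, 0.47 and -0.61 in the same order. These values show how far single libraries moved the differences by which the 4 were picked, and no stability is read from them.

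**Figure D2:**
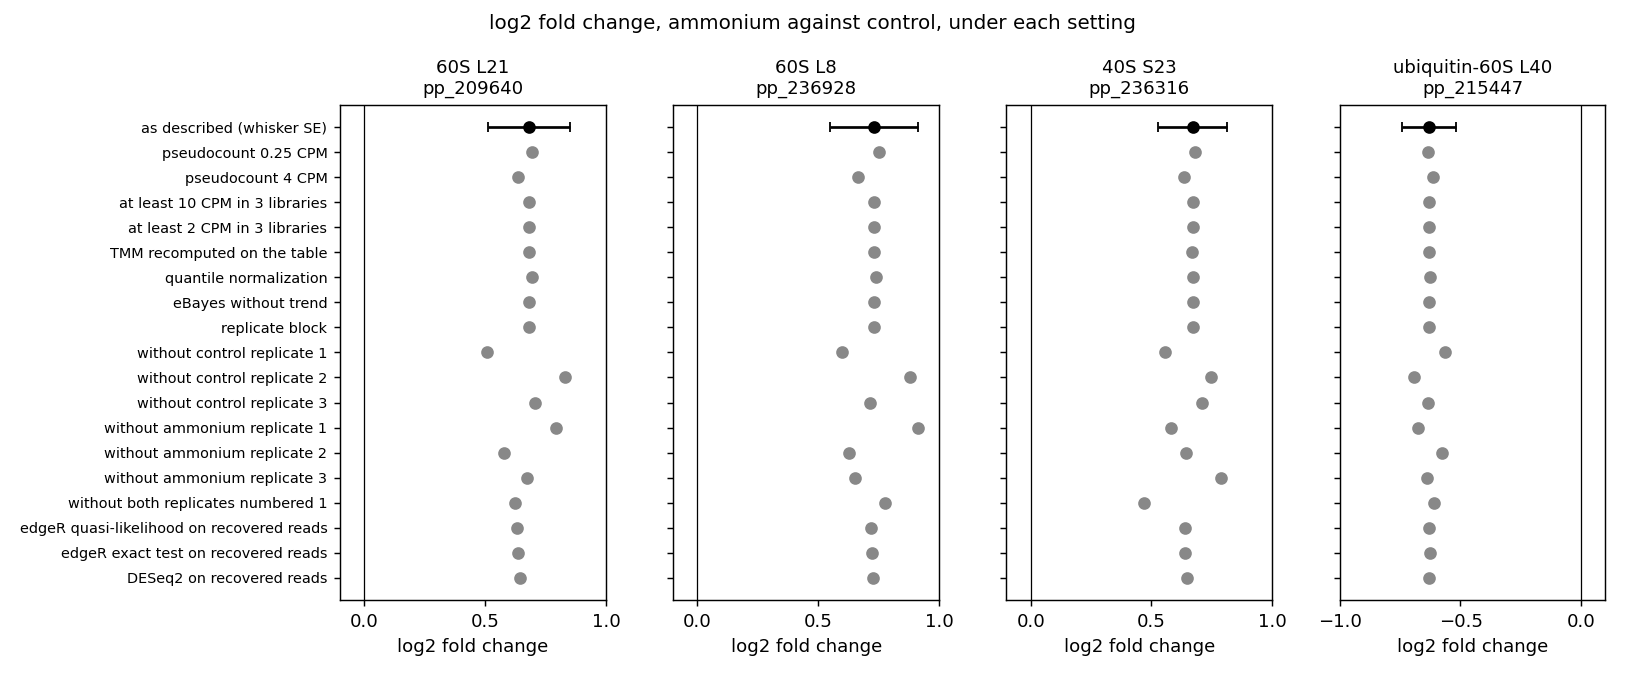
log2 fold change of the 4 transcripts (ammonium against control, horizontal axis) as described and under 18 other settings (rows); the whisker of the top row is its standard error. The filters, the fit without trend and the replicate block cannot move a difference of group means and repeat the top value; the lowest value for S23, 0.47, is the one without C1 and N1.

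The 3 transcripts that were higher under ammonium were minor ones among the transcripts annotated for their protein. Only transcripts named in the study's annotation tables could be assigned to a protein. Unnamed transcripts of the same protein would be missed in the numbers of transcripts, shares and sums below. For L21, 6 transcripts of the table carried that annotation. The most abundant, pp_209643, was at 182, 204 and 226 CPM in C1 to C3 and at 202, 221 and 206 CPM in N1 to N3, and its groups overlapped. The next, pp_209641, lay between 119 and 167 CPM in controls and between 127 and 153 CPM under ammonium. Neither passed the test (log2 fold changes of 0.04, adjusted p = 0.94, and 0.01, adjusted p = 0.99; limma across all 46658 transcripts with Benjamini-Hochberg adjustment). The annotation tables match pp_209643 and pp_209640 to the same unigene of an older pine assembly, although only pp_209640 separated the groups.

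Of the less abundant L21 transcripts, pp_209639 had 31.5, 38.7 and 41.1 CPM in C1 to C3 and 61.4, 56.9 and 50.99 CPM in N1 to N3. Its groups did not overlap and its log2 fold change was 0.60 (SE 0.14), but its adjusted p in limma was 0.18. It was below 0.05 only with edgeR's exact test on recovered reads (adjusted p = 0.031), and over all the alternatives the adjusted p lay between 0.031 and 0.57. Another 2, pp_209646 (log2 fold change 0.47) and pp_173465 (at most 3.92 CPM), are named only in a list ordered by p on these same libraries and are given without a test. All 4 L21 transcripts under 100 CPM were higher in each ammonium library than in each control library, and the pair above 100 CPM overlapped, but 3 of those 4 are known from their difference in these libraries.

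L8 had 3 annotated transcripts, of which only the described one separated the groups. The main one, pp_236932, stood at 165, 191 and 211 CPM in C1 to C3 and at 206, 205 and 202 CPM in N1 to N3 (log2 fold change 0.12, adjusted p = 0.80 in limma). It matches the same unigene as pp_236928. The other, pp_236931, lay between 74.4 and 83.1 CPM in controls and between 77.9 and 89.0 CPM under ammonium (0.08, adjusted p = 0.88 in limma). Both overlapped between the groups.

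For S23 the main transcript was pp_236318, at 123, 145 and 160 CPM in C1 to C3 and 159, 161 and 146 CPM in N1 to N3 (log2 fold change 0.13, adjusted p = 0.78 in limma). It also shares its unigene with pp_236316. A further transcript, pp_236320, followed pp_236316 almost read for read, with 46, 225 and 200 reads in C1 to C3, against 46, 225 and 198 for pp_236316, and 232 and 330 in N1 and N2, against 232 and 325. The squared differences of the reads divided by their sums added up to 0.063 over the 6 libraries, where independent counts of the same mean would give about 6. The 2 were therefore counted as 1 transcript, since they differed by less than the sampling noise; whether the same reads were assigned to both was not tested. Another S23 transcript, pp_198434, also known only from the list ordered by p, had under 5 CPM in 5 libraries and 17.9 CPM in N1.

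**Figure D3:**
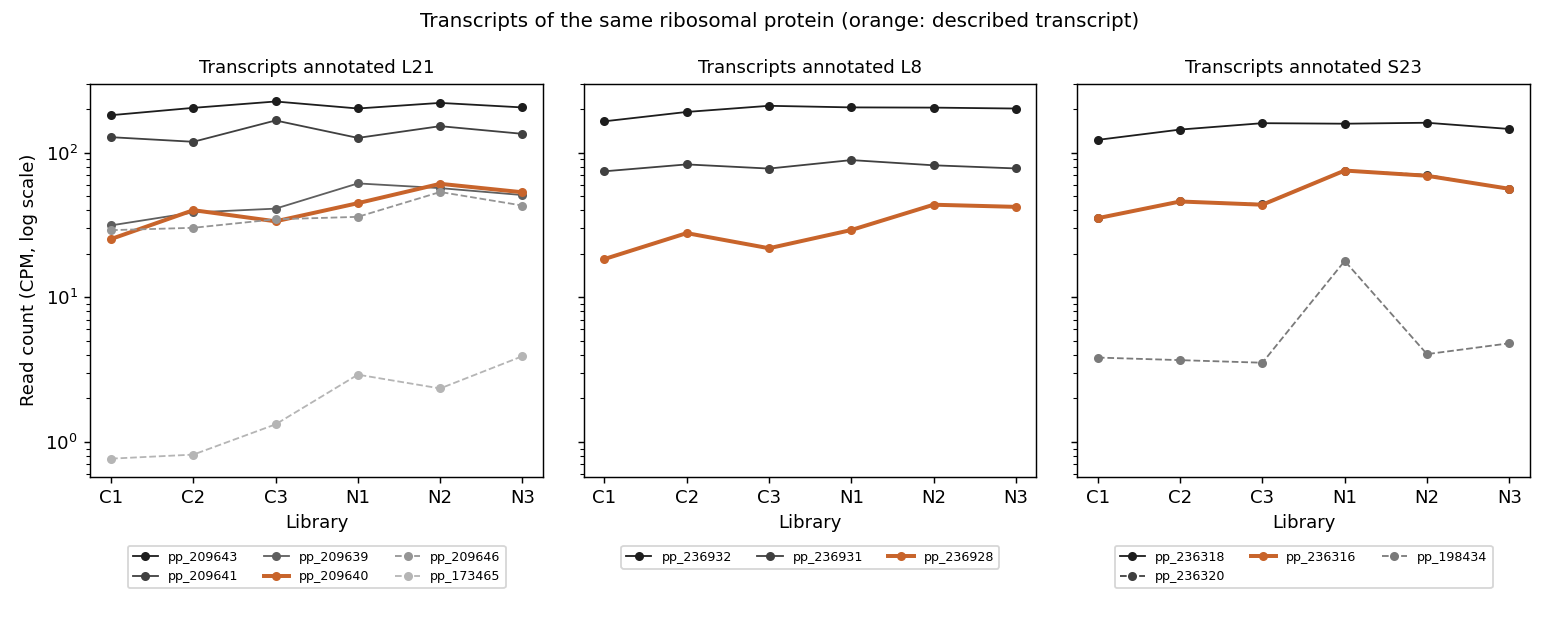
Level in CPM (log scale) of each transcript annotated as L21, L8 or S23 in the 6 libraries; orange marks the described transcript, dashed lines mark transcripts named only in a list ordered by p on these libraries, and the lines only join the points of a transcript. The most abundant transcripts run flat between 100 and 300 CPM from C1 to N3, and the orange ones lie lower and are higher in N1 to N3; pp_236320 lies under pp_236316.

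The share of the reads annotated to each protein that came from the described transcript follows from the same reads and is also a description. pp_209640 made up 6.38%, 9.25% and 6.66% of the L21 reads in C1 to C3 and 9.45%, 11.1% and 10.8% in N1 to N3. The lowest ammonium share lay just above the highest control share, within the 95% Wilson interval of both (8.09 to 10.6% in C2, 8.06 to 11.1% in N1). pp_236928 made up 7.14%, 9.20% and 7.04% of the L8 reads in C1 to C3 and 9.02%, 13.2% and 13.1% in N1 to N3. For L8 the shares of the groups overlapped, as N1 was below C2. pp_236316 made up 21.8%, 23.7% and 21.1% of the S23 reads in C1 to C3 and 29.9%, 29.5% and 27.2% in N1 to N3. The S23 shares did not overlap, with means of 22.2 ± 1.34% in controls and 28.9 ± 1.47% under ammonium (SD, n = 3 each); pp_236320 was left out of the total. These intervals cover counting error only.

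The summed level of the annotated L21 transcripts was 445 ± 54.6 CPM in controls and 505 ± 38.3 CPM under ammonium (SD, n = 3 each). That of L8 was 290 ± 28.5 CPM against 326 ± 4.45 CPM, and that of S23 was 188 ± 23.4 CPM against 231 ± 22.6 CPM. Expressed as log2 ratios of the means, the sums differed by 0.18, 0.17 and 0.30, each well below the value of the described transcript. Without the described transcript the log2 ratios of the remaining sums were 0.13 for L21, 0.10 for L8 and 0.17 for S23. The remaining sums of L21 (pp_209646 and pp_173465) and S23 (pp_198434) still hold transcripts known only from the list ordered by p on these libraries. They are therefore not free of selection on this contrast, and nothing is read from their sign. The totals behind the shares hold the same transcripts.

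**Figure D4:**
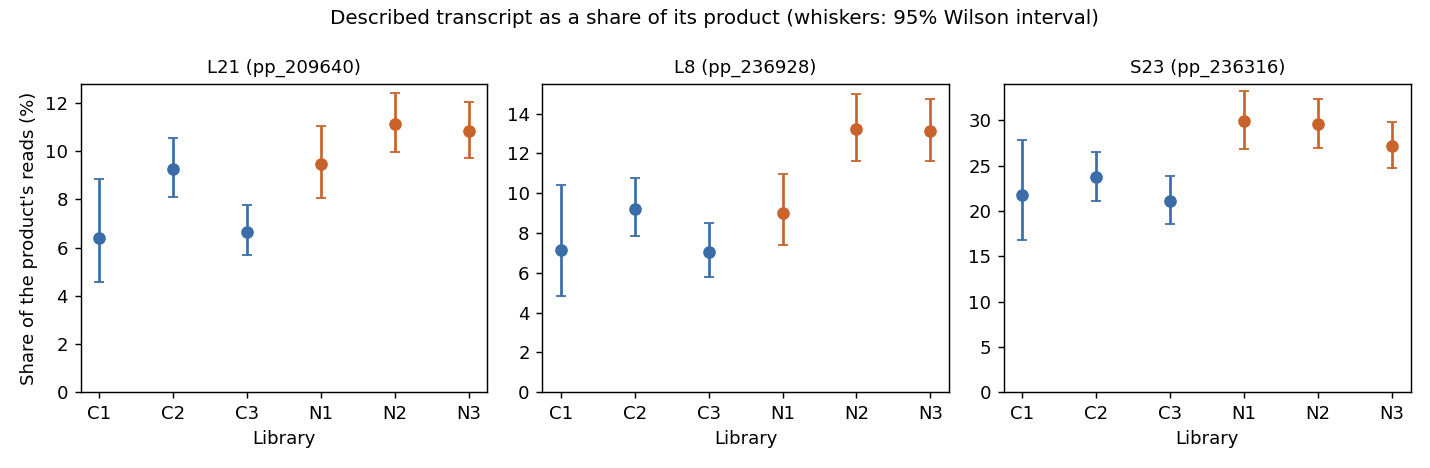
Share of the reads annotated to L21, L8 and S23 that came from pp_209640, pp_236928 and pp_236316 in each library (percent; blue control, orange ammonium; whiskers: 95% Wilson intervals of the reads). The S23 shares separate the groups (21.1 to 23.7% against 27.2 to 29.9%), the L21 shares barely do, and the L8 share of N1 lies below that of C2.

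Most of the other ribosomal protein transcripts that were counted had small differences. A list of 146 other transcripts assigned to ribosomal proteins (79 of the large subunit, 62 of the small subunit and 5 of the acidic stalk), encoding 66 different proteins, was taken from the study's protein and RNA modification results. These are not ordered by expression in these libraries. The RNA modification results came from reads of the same libraries, so membership was not independent of them. Some listed transcripts carry another name, such as pp_104668 (listed as S6, named a protein kinase) and pp_119282 (listed as S19, named a retrotransposon protein). The median level of the list was 108 CPM, against 6.95 CPM over all transcripts. None of the 146 passed an adjusted p of 0.05 in limma, where 0.0386% of all transcripts did (0.00857% for those higher and 0.03% for those lower). Before adjustment, 9 of the 146 were higher under ammonium and 0 lower at p under 0.05, that is 6.16% of the list against 4.1% of all transcripts higher, and none against 4.58% of all transcripts lower (8.67% in either direction). All 3 ammonium libraries lay above the controls for 15 of the 146 (10.3%, against 7.16% of all transcripts) and below them for 4 (2.74%, against 6.94%). Among the 1958 transcripts of similar level (between the quartiles of the list's levels) these shares were 7.51% higher and 8.63% lower before adjustment, and 11.5% above and 9.70% below, so the list's share of higher transcripts was near that background. A further 39 ribosomal protein transcripts, named only in the list ordered by p on these libraries, were not counted. The counts, medians and summed level of the list therefore hold for the 146 and not for every annotated ribosomal protein transcript. With edgeR's quasi-likelihood test and DESeq2 on recovered reads none of the 146 passed either; edgeR's exact test called 1, pp_209639.

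The median log2 fold change of the list was 0.06, beside 0.00 over all transcripts, with 106 of the 146 above 0. It was 0.05 for the large subunit, 0.08 for the small subunit and 0.16 for the 5 stalk transcripts. The middle 50% of the list spanned -0.00 to 0.13, so the values of most of the 146 were close to 0. This lean rested on C1: without it the median was 0.01 and the count higher at an unadjusted p under 0.05 was 5, and without C1 and N1 the median was -0.00. The median level of the list was itself lowest in C1, at 95.5 CPM, against 103 to 113 CPM in the other libraries. The summed level of the list was 16426 ± 1072 CPM in controls and 16976 ± 547 CPM under ammonium (SD, n = 3 each), a difference that an exact permutation test over the libraries did not separate (two-sided p = 0.50, where 0.10 is the smallest that 3 against 3 can give). Over 131 transcripts, 1 per set of near-equal counts, the sum was 14009 ± 973 CPM in controls and 14545 ± 493 CPM under ammonium (SD, n = 3 each). That set was chosen after seeing the data.

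Among the 149 transcripts formed by the list and the 3 described ones, the log2 fold changes of L8, L21 and S23 ranked 3, 4 and 5, while their mean levels ranked 135, 121 and 114. The 39 transcripts named only in the list ordered by p were left out, and they include larger values (1.02 for pp_6983, L9). The 3 were also picked on this contrast, so nothing is read from these ranks. The median mean level of the 149 was 108 CPM. The transcripts that ranked above them, pp_127058 (S26) and pp_104672 (S6), had mean levels of 3.68 and 1.75 CPM. In level ranges chosen after seeing the data, 11 of the 13 list transcripts under 20 CPM were above 0 with a median of 0.36, and without C1 and N1 9 of 13 with a median of 0.21. Of the 21 list transcripts between 20 and 60 CPM, the range that holds the 3, 18 were above 0 with a median of 0.15, whereas all 6651 transcripts of that range had a median of 0.00. Without C1 and N1 this fell to 10 of 21 and a median of -0.02, so that value rested on the first library of each group. Of the 112 list transcripts above 60 CPM, 77 were above 0 with a median of 0.04, and 54 without C1 and N1.

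**Figure D5:**
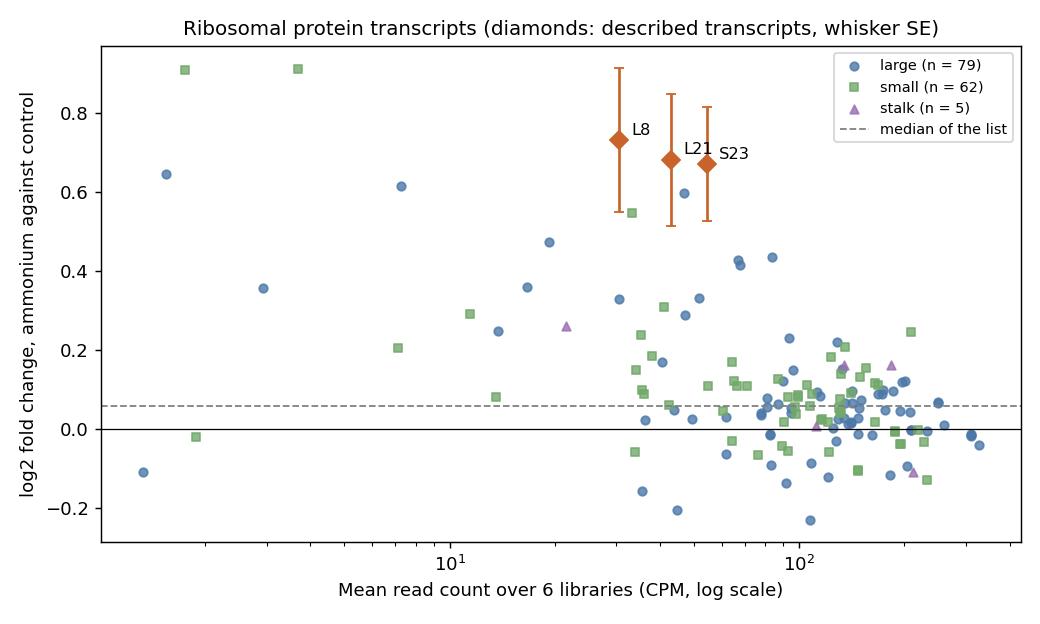
log2 fold change (ammonium against control) against the mean level over the 6 libraries (CPM, log scale) for 146 other ribosomal protein transcripts (circles large subunit, squares small subunit, triangles stalk) and for L21, L8 and S23 (orange diamonds with standard errors). Above 100 CPM nearly all points lie between -0.25 and 0.25 around the list median of 0.06; the diamonds stand at 0.67 to 0.73 between 30 and 60 CPM.

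The list transcripts with the smallest p, after pp_209639, were of S15, L4 and L7. pp_77777 encodes S15, a protein of the head of the small subunit, and its levels were 23.02, 32.9 and 24.5 CPM in C1 to C3 and 33.4, 46.3 and 38.9 CPM in N1 to N3 (log2 fold change 0.55, adjusted p = 0.34 in limma). pp_85614 (L4, which lines the exit tunnel of the large subunit) had 56.8, 61.2 and 55.2 CPM against 63.6, 90.2 and 80.4 CPM (0.42, adjusted p = 0.40 in limma). pp_215989 (L7) had 47.6, 64.0 and 59.4 CPM against 87.3, 76.6 and 66.7 CPM (0.43, adjusted p = 0.41 in limma). In each of these the groups did not overlap, and in none did the difference pass the adjusted threshold. The highest library differed among them: S15 and L4 peaked in N2 as the described L21 and L8 transcripts did, and L7 peaked in N1 as S23 did. pp_209639 peaked in N1 although it is also annotated as L21, so the highest library did not follow the protein. Without C1 and N1 a different transcript, pp_135553 (L5, which carries 5S ribosomal RNA into the ribosome), passed limma with an adjusted p of 0.041.

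The annotation of the ubiquitin-L40 transcript is less certain than that of the other 3. Its name and its closest Arabidopsis match do not point the same way: the match, AT1G65349, is labelled a hypothetical protein, and the same match is given to 2 transcripts annotated as pine polyubiquitin and to 1 annotated as ubiquitin-S27a. The other transcript annotated as an L40 fusion, pp_216831, matches an Arabidopsis ubiquitin-L40 gene and went the other way. It was at 144, 158 and 151 CPM in C1 to C3 and at 179, 180 and 163 CPM in N1 to N3, and all ammonium libraries lay above the controls (log2 fold change 0.20, adjusted p = 0.59 in limma). The level of pp_215447 is therefore given as that of a transcript with a ubiquitin part whose ribosomal part was not checked here, because its sequence was not used.

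The ubiquitin-S27a fusions had values on both sides of 0, and none of those tested passed. pp_231699 and pp_231700, which differed by less than the sampling noise, had 85.2, 104 and 98.1 CPM in C1 to C3 and 105, 123 and 111 CPM in N1 to N3 in the case of pp_231699 (0.24, adjusted p = 0.59 in limma). pp_197055 overlapped between the groups, with a log2 fold change of 0.02 (adjusted p = 0.98 in limma). Of those known only from the list ordered by p, pp_195752 had a log2 fold change of 0.90 at a mean of 2.94 CPM with overlapping groups. In pp_153161 (-0.45) and pp_153167 (-0.59) all ammonium libraries lay below the controls. pp_153175, which the tables match to the Arabidopsis gene AT1G23410 and to other genes besides, was at 120, 93.1 and 88.1 CPM in C1 to C3 and at 68.5, 66.3 and 76.5 CPM in N1 to N3 (-0.49, adjusted p = 0.26 in limma). All 4 transcripts matched to AT1G65349, pp_215447 included, had a log2 fold change below 0, from -0.63 to -0.35, and all 4 are annotated only in the list ordered by p on these libraries, so nothing is read from their common direction.

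A list of 26 other transcripts annotated as ubiquitin, polyubiquitin or a fusion was drawn up in the same way as the ribosomal protein list. A further 16, named only in the list ordered by p on these libraries, were not counted. The counts, median and summed level below therefore hold for the 26 and not for every annotated ubiquitin transcript. None of the 26 passed an adjusted p of 0.05 in limma, with either edgeR test or with DESeq2. At an unadjusted p under 0.05 there were 0 higher and 4 lower (15.4%, against 4.58% of all transcripts). Among the 1958 transcripts at the level of the ribosomal protein list, 8.63% were lower. The median log2 fold change of the 26 was 0.00 and their median level was 70.8 CPM. The 4 were pp_153162 (-0.41, adjusted p = 0.22), pp_153175, pp_11322 (-0.31, adjusted p = 0.41) and pp_119737 (-0.48, adjusted p = 0.58), all in limma. Their count went from 4 to 8 without N1, and without C2 the count of higher ones went from 0 to 4. pp_197054, a polyubiquitin transcript, stood out in N1: it was at 131 CPM (402 reads) in N1 and at most 56.3 CPM (275 reads, C2) in any other library. The 4 polyubiquitin transcripts whose numbers come just before pp_215447 had mean levels between 292 and 887 CPM and log2 fold changes of -0.06 to -0.01. The summed level of the 26 was 3655 ± 157 CPM in controls and 3507 ± 262 CPM under ammonium (SD, n = 3 each; exact permutation test, two-sided p = 0.50).

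The counted transcripts of other parts of the translation and protein turnover machinery held no call either. Those named only in the list ordered by p on these libraries were again left out. Of 30 translation factor transcripts 0 passed an adjusted p of 0.05 in limma, while an unadjusted p under 0.05 was reached by 1 higher (3.33%, against 4.1% of all transcripts) and 3 lower transcripts (10%, against 4.58%), and the median log2 fold change was 0.00. The 2 of smallest p were pp_233771, an EF1B gamma subunit that helps to recharge elongation factor 1 (10.02 ± 0.935 against 17.8 ± 2.45 CPM, SD, n = 3 each; log2 fold change 0.76, adjusted p = 0.17 in limma), and pp_185331, an elongation factor 1-alpha sequence with 3, 16 and 17 reads in C1 to C3 and 1, 3 and 4 in N1 to N3 (-1.39, adjusted p = 0.21 in limma). Of 29 proteasome transcripts 0 passed, and that p was reached by 2 higher (6.90%, against 4.1% of all transcripts) and 1 lower (3.45%, against 4.58%), with a median of 0.08. The smallest p among them belonged to pp_171195, a beta subunit (63.5 ± 2.02 against 77.6 ± 6.63 CPM, SD, n = 3 each; 0.28, adjusted p = 0.51 in limma), and pp_105232, an alpha subunit (0.32, adjusted p = 0.57 in limma).

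The transcripts whose pattern over the 6 libraries was most like that of each described one were sought among named transcripts with a mean of at least 10 CPM, by Pearson's r of log2(CPM + 1). As any transcript that separates the groups scores high, r is given only as a description. For L21 the closest was another ribosomal protein transcript, pp_236128 (S30, a small subunit protein), with r = 0.998 and a level of 8.44 to 20.9 CPM. It was followed by pp_124761, a serine hydroxymethyltransferase (r = 0.990), and pp_198401, an anthocyanidin reductase (r = 0.990). For L8 the closest were pp_167571 and pp_167570, which have nearly equal counts and are annotated as L-asparaginase, the enzyme that releases ammonium from asparagine (r = 0.997 and 0.996), and pp_203558, a V-type proton ATPase subunit (r = 0.996). For S23 they were pp_138201, an alpha/beta-hydrolase (r = 0.991), pp_249614, an HR-like lesion-inducing protein (r = 0.990), and pp_216831, the L40 fusion described above (r = 0.987). For ubiquitin-L40 they were 3 transcripts of the beta subunit of translation initiation factor 2, pp_245940, pp_245941 and pp_245937 (r = 0.998, 0.997 and 0.992), which carries the initiator tRNA to the ribosome. None of the 3 was among the 30 translation factor transcripts counted above, as they are named only in the list ordered by p on these libraries. The counts of pp_245937 differed from those of each of the other 2 by less than the sampling noise, so the 3 are not independent. The first of these was at 69.0, 61.8 and 65.1 CPM in C1 to C3 and at 50.98, 45.8 and 50.3 CPM in N1 to N3.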

How the data were processed

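Whole-root poly(A) RNA of 3 control and 3 ammonium-supplied samples was sequenced by DRS. Per the labels and the study's methods, the authors mapped the reads with minimap2 to a maritime pine root transcriptome and scaled them with edgeR (versions not given in the sources used here). The deposited values are CPM, kept where at least 2 libraries reach 2 CPM; all 46658 transcripts met this. 100% of the values were whole multiples of 1 read (tolerance 1e-06), so reads were recovered, and no column was left out. Redundant transcripts with nearly equal reads were common: 55.6% of the 14952 transcripts with at least 300 reads had such a partner within 50 transcript numbers, as had 68 of the 146 listed ribosomal protein transcripts.

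log2(CPM + 1) was fitted with limma 3.58.1 (trended eBayes, R 4.3.3) on all 6 libraries, two-sided, with Benjamini-Hochberg adjustment over all transcripts. edgeR 4.0.16 and DESeq2 1.42.0 on recovered reads were alternatives, since the main test follows the deposited unit. The scripts were tested on simulated data. Of 67 transcripts changed at each of these sizes, limma recovered 32.8% at 1.5-fold and 89.6% at 2-fold, in a simulated table of 46658 transcripts. All changed transcripts had a mean above 20 CPM, so these rates do not cover the 37034 transcripts of lower level. The 4 transcripts and the gene lists were chosen with earlier results of these data known. Transcripts named were the 4, those with the same annotation, those of smallest p in each list (4 ribosomal, 4 ubiquitin, 2 translation factor, 2 proteasome), and the 3 most alike. Others were named after their values were seen: pp_104672, pp_127058, pp_135553, pp_197054 and pp_135387. Names came from the study's annotation tables; no sequence was used.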

Additional observations from a re-analysis of the deposited data

How the results depend on the processing

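Over the 18 alternatives the log2 fold changes of the 4 described transcripts ranged from 0.51 to 0.83 for L21, 0.60 to 0.91 for L8, 0.47 to 0.79 for S23 and -0.69 to -0.56 for ubiquitin-L40; both filters, the fit without trend and the block cannot move these values, and the 4 were picked on this difference, so no stability is read from it. The number of calls over the whole table was 18 in limma, 0 without trend, 114, 378 and 97 with edgeR's quasi-likelihood test, edgeR's exact test and DESeq2, 352 without C1 and N1, and 0 to 71 when single libraries were left out. Of the 146 ribosomal protein transcripts, 1 passed an adjusted p of 0.05 with edgeR's exact test and 1 without C1 and N1. At an unadjusted p under 0.05, 4 were higher without trend, and with single libraries left out 5 to 12 were higher and 0 to 1 lower. Of the 26 ubiquitin transcripts, 3 were higher with quantile normalization, 1 with edgeR's quasi-likelihood test and 1 with the exact test. 2 were lower without trend, 7 without C1 and N1, and with single libraries left out 0 to 4 were higher and 3 to 8 lower. The cause was not tested. Keeping 1 transcript of each set of near-equal counts, chosen after seeing the data, left the counts at an unadjusted p under 0.05 as they were (9 of 131 ribosomal protein transcripts higher and 0 lower, 0 of 25 ubiquitin transcripts higher and 4 lower), while 98 in place of 106 ribosomal protein transcripts were above 0, 3 in place of 4 lay below all controls, and 2 in place of 3 ubiquitin transcripts lay above all controls. The correlations of same-numbered deviations lay between -0.03 and 0.09 over 17832 transcripts. With 3 libraries per group these values cannot settle whether the library numbers pair the samples. With the number as a replicate block the table held 49 calls, against 18 without it, and none was in either list. The log2 fold changes of the 4 were then 0.68, 0.73, 0.67 and -0.63. Depth limits C1 most, where L8 rested on 24 reads.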

Other observations

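Minor and major transcripts of the same protein were compared for the ribosomal proteins other than L21, L8 and S23, with 1 transcript kept of each set of near-equal counts; this comparison was chosen after seeing the data and has no test. Of 37 proteins with at least 2 distinct annotated transcripts, the least abundant had the higher log2 fold change in 22, and the median difference between the least and the most abundant was 0.05. The middle 50% of these differences ran from -0.03 to 0.34. L13, a large subunit protein, was among them: its least abundant transcript pp_135387 had 3.84, 6.75 and 6.18 CPM in C1 to C3 and 9.74, 7.46 and 9.63 CPM in N1 to N3 (log2 fold change 0.61), and its most abundant one had a log2 fold change of 0.15.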
